A study of Homo sapiens with 10 samples.

Results

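The interferon-stimulated genes are the antiviral and signalling genes that cells transcribe after interferon binds its receptors. The set described here was 45 genes chosen by symbol and grouped by the role of their products. Of these, 44 were named on the array, out of 17687 named genes. STAT2 was not in the annotation table used here. RNA was measured on 10 one-colour arrays from 4 human myeloid cell lines, with 1 array a condition. HL60 is an acute myeloid leukaemia line and K562 a chronic myeloid leukaemia line, while MDSL and SKM1 come from myelodysplastic disease. Each line gave an untreated control array and an array after 96 h of OR21, the agent that the series title calls OR-2100 and a hypomethylating agent. The dose was 500 nM in HL60 and K562 and 100 nM in MDSL and SKM1, so dose cannot be told apart from line or, in part, from disease. A further pair of arrays held the AZA resistant and the OR21 resistant derivative of HL60, named so in the labels, both untreated and each a single derivative. How the derivatives were selected was not given in the sources used here. MDSL was cultured with interleukin-3, per the labels. No mutation or transgene is given for any line. Separate cultures are not named in the labels, so the p-values rest only on the spread between lines.

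Type I interferons bind a receptor built from IFNAR1 and IFNAR2, and the kinases JAK1 and TYK2 then start the signal inside the cell. It leads to the complex ISGF3, which contains IRF9 and STAT2 and binds the interferon-stimulated response element in promoters and switches the genes on. The products block viral entry, RNA and translation, and several of them (IRF7, IRF9, STAT2) are themselves parts of the pathway. As background, drugs that lower DNA methylation are known to raise interferon-stimulated genes in cancer cells. In bulk RNA a change in the share of cells that express a gene and a change in the RNA per cell cannot be told apart.

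All levels below are log2 intensities of 1 probe set, and all differences are log2 differences, where 1 means 2-fold. Levels of different probe sets are not compared with each other. The background of an array was the median of its 23 background probe sets, which lay at 4.98 on the MDSL control array and between 5.41 and 5.43 on the other 9. Their 95th percentile lay between 6.95 and 7.12. The lines carried the markers of their labels. MPO, a granule enzyme of myeloid precursors, was at 17.01 in control HL60 and 17.08 in control SKM1. The haemoglobin gene HBE1 was at 13.59 in control K562, and the progenitor marker CD34 was at 14.68 in control MDSL. One array stood apart in a technical measure: the mean of the 4 hybridisation spikes was 11.71 on the array of treated HL60 and 10.85 to 11.10 on the other 9.

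Most searched promoters of the set held the core of the response element that ISGF3 binds. The members were chosen by symbol as interferon-stimulated genes, so this share is not independent of the choice. RefSeq promoter windows (GRCh38.p14, from 250 bases before to 50 bases after each start) held 47 windows of members. No window was available for IFIT2, IFITM2, MX2, OAS2, OASL, IRF7, USP18, LY6E, TRIM22 and GBP2, so these were not searched. The core of the response element was searched as GAAA followed, after any 2 bases, by GAAA, on both strands, with overlapping matches kept. It was found in 28 of the 47 windows (59.6%), against 3.57% of all 35116 windows in the table. Counted by gene, it was in 24 of the 34 measured members with a window (70.6%), against 589 of 14250 genes of the array (4.13%). With the repeats spaced by 3 bases the share was 17.0%, against 2.86% of all windows. TTC followed after any 3 bases by GAA, the core of the gamma-activated sequence, was in 13 of the 47 windows (27.7%), against 7.66% of all windows. Across the 34 members, the median of the mean response to OR21 was 1.47 with the element and 0.93 without it, given as a description. A match says only that these letters stand in the window.

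The stretches below were chosen because they hold the elements of the members with large, small or contrasting responses. Capitals mark the paired GAAA repeats, read as TTTC on the other strand. In the IFI6 stretch (chr1:27672272-27672352, minus strand) 3 pairs stand within 81 bases, and in the ISG15 (chr1:1013379-1013404, plus strand) and BST2 (chr19:17405740-17405765, minus strand) stretches the pairs overlap. The other stretches are from IFI27 (chr14:94110621-94110656, plus strand), IFIT1 (chr10:89392502-89392534, plus strand), IFIT3 (chr10:89327837-89327889, plus strand), RSAD2 (chr2:6877627-6877646, plus strand), IFITM3 (chr11:320881-320917, minus strand), PARP9 (chr3:122564323-122564350, minus strand) and HERC5 (chr4:88456989-88457059, plus strand).
IFI6: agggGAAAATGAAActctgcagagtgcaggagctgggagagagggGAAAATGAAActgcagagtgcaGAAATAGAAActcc
IFI27: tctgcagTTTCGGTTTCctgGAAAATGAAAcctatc
IFIT1: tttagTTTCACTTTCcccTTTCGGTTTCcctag
IFIT3: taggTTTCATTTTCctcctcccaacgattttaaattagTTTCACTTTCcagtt
ISG15: ctcggGAAAGGGAAACCGAAActgaa
RSAD2: tcaacTTTCAGTTTCacatg
BST2: tctggGAAACTGAAACTGAAAaccta
IFITM3: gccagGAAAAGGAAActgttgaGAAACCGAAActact
PARP9: ggcgcaaagTTTCAGTTTCgcttccctg
HERC5: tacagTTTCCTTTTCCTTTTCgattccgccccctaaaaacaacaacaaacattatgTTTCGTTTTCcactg
The window of IRF9 held no such pair but held the TTC and GAA pair (chr14:24161192-24161220, plus strand), shown in capitals with its 3 spacer bases.
IRF9: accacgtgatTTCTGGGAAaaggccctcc

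OR21-treated cells had higher levels of most of these genes. The median member differed by 1.53 in MDSL and 1.40 in SKM1, the lines at 100 nM, and by 0.85 in HL60 and 0.63 in K562, the lines at 500 nM. The median of all genes differed there by -0.042, -0.024, -0.047 and -0.0006. When the arrays were scaled to their hybridisation spikes instead, the HL60 member median was 0.092 and the median of all genes there was -0.81. The mean difference over the 4 lines was above 0 for all 44 members on the deposited scale, with a median of 1.31 against -0.019 over all genes. HERC5 alone turned below 0 when arrays were centred on their medians or scaled to the spikes. In every line, 26 of the 44 members (59.1%) were higher after treatment, against 12.2% of all genes.

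At least 2-fold higher levels were seen for 30 members in MDSL (6.62% of all genes) and 30 in SKM1 (7.1%), and for 20 in HL60 (10.2%) and 14 in K562 (5.05%). Of the 14 in K562, HERC5 and IRF7 were under background on both arrays, so no difference was measured for those 2. With a control under background replaced by its array's background median, some others came to less than 2-fold. These were OAS2 and IRF7 in MDSL, IFI44 and IRF7 in SKM1, and GBP1 in HL60. No member was 2-fold or more lower in any line, and the lowest difference was -0.92, for IRF1 in MDSL. The members that reached 2-fold in all 4 lines were IFI6, IRF9, IFI27, IFIT3 and PARP14, which makes 5 of 44, against 0.424% of all genes. By the deposited values, 10 members reached 2-fold in 3 lines, 16 in 2 lines, 12 in 1 line, and 1 member, ISG20, in none. This tally counts IRF7 in 3 lines and HERC5 in 1 line through K562, where no difference was measured for them. HERC5 thus had no measured 2-fold difference in any line. Without HL60 the count at 2-fold in every line was 10, IRF7 included, and without K562 it was 9.

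Over the 4 lines, limma with the line as a block called 1 member, IFI6, at an adjusted p under 0.05, against 7 of 17687 genes called higher (0.0396%). At an unadjusted p under 0.05 there were 28 members and 3372 genes. The call of IFI6 was lost without any 1 of the lines, with the adjusted p between 0.0503 without K562 and 0.181 without SKM1, and also when values near background were raised to a floor (0.13) or the line was not a block (0.982). Scaled to the hybridisation spikes, limma called 9 members and 171 genes higher, among 240 genes called either way.

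**Figure D1:**
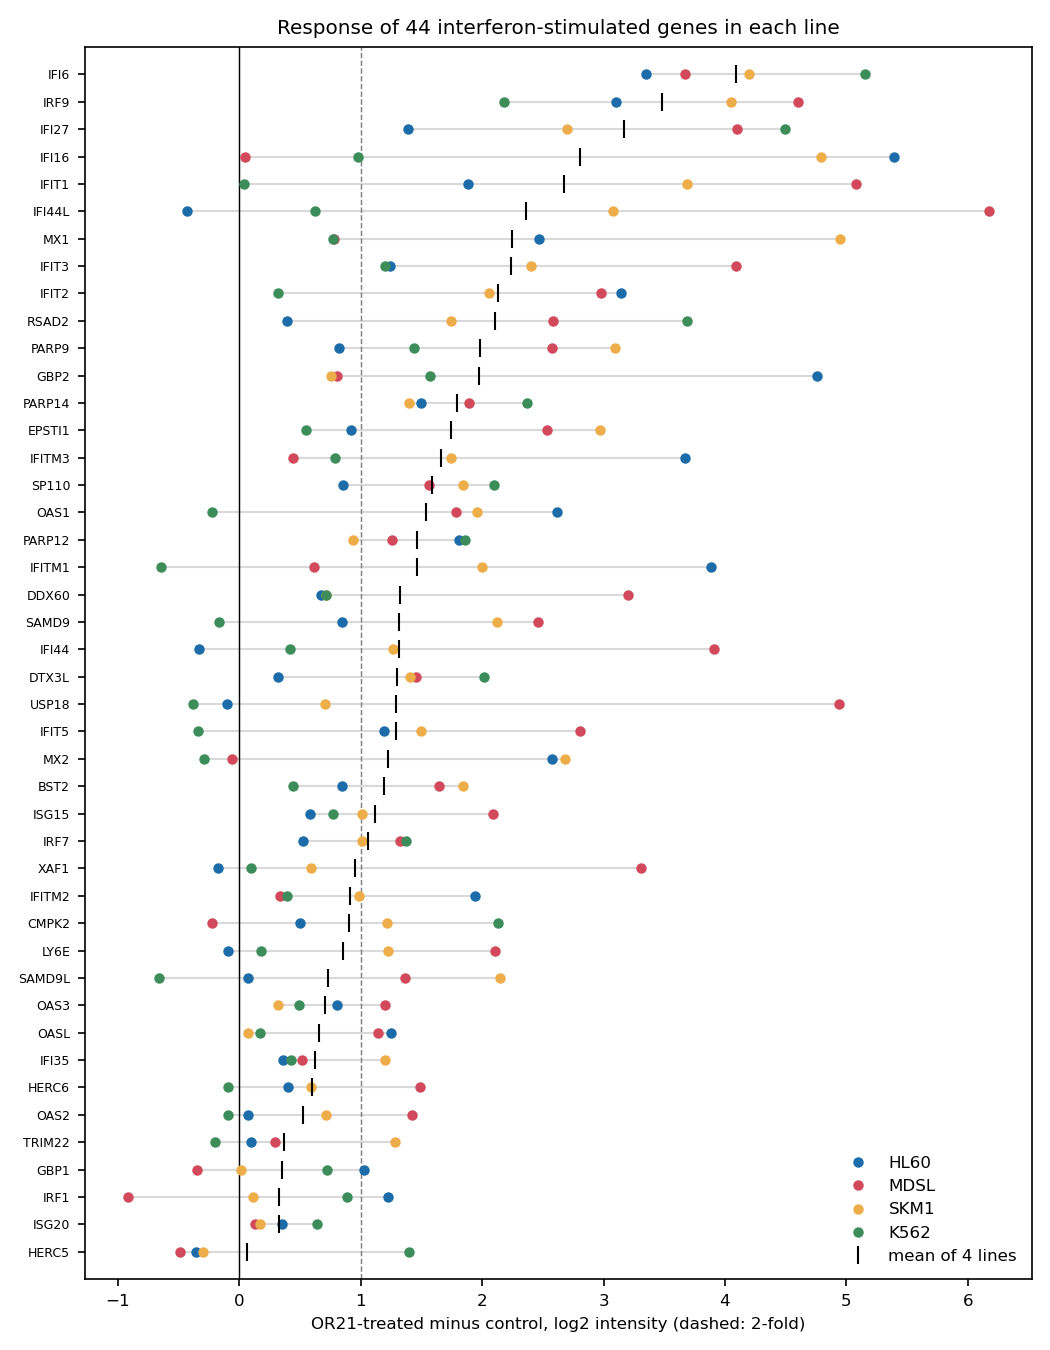
Log2 difference between OR21-treated and control cells for the 44 measured interferon-stimulated genes, 1 point per line, with a tick at the mean of the 4 lines, by which members are ordered, and a dashed line at 2-fold. IFI6 lies between 3.35 and 5.16 in all 4 lines, while IFI44L runs from -0.43 in HL60 to 6.17 in MDSL.

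The small interferon-inducible proteins had the largest group median of the mean differences (2.36, the value of IFI44L) and also some of the widest spreads between lines. By line, their median was the largest of the groups in MDSL (3.91) and SKM1 (2.70). It was 0.36 in HL60, against 2.52 for the GTPases, and 0.62 in K562, against 1.94 for the ADP-ribosyltransferase group. IFI6, a mitochondrial protein that protects cells from apoptosis, went from 7.92 to 11.27 in HL60, from 12.77 to 16.45 in MDSL, from 9.50 to 13.70 in SKM1 and from 8.51 to 13.67 in K562. All 4 treated arrays lay above the control of their own line by more than 10-fold. IFI6 rose by 4.09 ± 0.79 (SD, n = 4; limma adjusted p = 0.0271). It was at 10.06 in the AZA resistant and 10.53 in the OR21 resistant derivative, below treated HL60 and above parental HL60.

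IFI27, a related mitochondrial protein, went from 6.09 to 7.48 in HL60, from 6.35 to 10.45 in MDSL, from 5.88 to 8.58 in SKM1 and from 5.56 to 10.05 in K562. The 4 controls were within 1 log2 unit of each other, and the spread lay in the treated arrays. Its mean difference was 3.17 ± 1.41 (SD, n = 4; limma adjusted p = 0.102). It was at 7.18 in the AZA resistant and 7.38 in the OR21 resistant derivative, both close to treated HL60.

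IFI44L, a cytoplasmic protein known as a sensitive marker of interferon exposure, was under background in all 4 controls. It went from 4.31 to 3.87 in HL60, from 4.30 to 10.48 in MDSL, from 3.94 to 7.02 in SKM1 and from 3.75 to 4.37 in K562. Treated HL60 and K562 stayed under background, so the difference lay in MDSL and SKM1 only among these lines. Set against the background of the control array, treated MDSL was at least 45.3-fold higher and treated SKM1 at least 3.04-fold higher. In these bounds, and in those below, a control at or under background was replaced by the background median of its array. The spread of the background probes was not taken into account. A bound from a value under their 95th percentile, as in SKM1 here (7.02 against 7.12), is therefore not firm. Over the 4 lines the means were 4.07 and 6.44, which is at least 2.19-fold (limma adjusted p = 0.275), and the measured mean difference went from 2.36 to 1.09 without MDSL. The derivatives were at 4.45 and 5.25, under background as well. IFI44, its neighbour on chromosome 1, went from 8.27 to 12.18 in MDSL, while its controls in the other 3 lines were between 4.39 and 4.77. IFI35, the remaining protein of the group, went from 7.95 to 8.31 in HL60, from 8.28 to 8.80 in MDSL, from 7.94 to 9.14 in SKM1 and from 7.96 to 8.39 in K562, and was at 8.12 and 7.74 in the derivatives.

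The IFIT proteins bind foreign RNA ends and hinder its translation. All 4 were at least 2-fold higher after OR21 in HL60, MDSL and SKM1, and 1 of 4, IFIT3, in K562. IFIT1 was under background in all 4 controls. It went from 4.77 to 6.65 in HL60, from 4.55 to 9.63 in MDSL, from 4.06 to 7.74 in SKM1 and from 5.01 to 5.05 in K562. Treated K562 stayed under background. The bounds were at least 2.35-fold in HL60, 25.2-fold in MDSL and 5.03-fold in SKM1. Over the 4 lines the means were 4.59 and 7.27, which is at least 3.89-fold (limma adjusted p = 0.156). IFIT1 was at 7.24 in the AZA resistant derivative, at least 3.56-fold above its parent, and at 6.83 in the OR21 resistant derivative, at least 2.68-fold above it.

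IFIT2 went from 5.32 to 8.46 in HL60, from 5.85 to 8.84 in MDSL, from 5.03 to 7.09 in SKM1 and from 5.28 to 5.60 in K562. Treated HL60 was at least 8.28-fold and treated SKM1 at least 3.19-fold above the control. Its mean difference was 2.13 ± 1.30 (SD, n = 4; limma adjusted p = 0.123), and it was at 7.49 and 7.03 in the AZA and OR21 resistant derivatives. IFIT3 went from 7.02 to 8.26 in HL60, from 7.68 to 11.77 in MDSL, from 6.75 to 9.16 in SKM1 and from 5.46 to 6.67 in K562. Every line passed 2-fold, with MDSL far above the rest. Both K562 values were under the 95th percentile of background (7.09 and 7.11), within the spread of the background probes. The mean difference of IFIT3 was 2.23 ± 1.36 (SD, n = 4; limma adjusted p = 0.122), and the derivatives were at 7.58 and 7.65. IFIT5 differed by -0.34 in K562 and by 1.19 to 2.81 elsewhere.

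Of the transcription factors, IRF9 had the second largest mean response of the whole set, and IRF1 one of the smallest. IRF9, the DNA-binding part of ISGF3, went from 6.82 to 9.92 in HL60, from 8.97 to 13.57 in MDSL, from 6.75 to 10.80 in SKM1 and from 7.60 to 9.78 in K562. Each treated array lay more than 4-fold above its control. The mean difference was 3.48 ± 1.07 (SD, n = 4; limma adjusted p = 0.0822). The derivatives were at 8.71 (AZA resistant) and 8.90 (OR21 resistant), above the parent and more than 2-fold below treated HL60. IRF7, the factor that amplifies type I interferon production, was under background in all 4 controls. It went from 4.22 to 4.74 in HL60, from 4.49 to 5.82 in MDSL, from 4.66 to 5.67 in SKM1 and from 3.82 to 5.19 in K562. Only treated MDSL and SKM1 were above the background median, by bounds of at least 1.79-fold and 1.19-fold. Both values were under the 95th percentile of background (6.95 and 7.12), within the spread of the background probes. Over the lines the means of IRF7 were 4.30 and 5.36, at least 1.03-fold (limma adjusted p = 0.116). The derivatives were at 4.46 and 4.20. IRF1, which responds chiefly to interferon-gamma, went from 8.17 to 9.39 in HL60, from 11.63 to 10.71 in MDSL, from 7.96 to 8.07 in SKM1 and from 5.70 to 6.59 in K562. The lines moved in opposite directions, and the mean difference was 0.32 ± 0.95 (SD, n = 4; limma adjusted p = 0.678), or 0.026 without HL60 and 0.74 without MDSL. IRF1 was at 8.15 and 8.64 in the derivatives.

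The 2-5A synthetases make the messenger that activates RNase L, which cuts viral RNA. By their measured differences, 4 of 4 members were at 2-fold in MDSL, 0 in K562, 2 in HL60 and 1 in SKM1. The OAS2 control in MDSL was under background, and the bound there was at least 1.91-fold. Treated OAS1, OAS2 and OASL in MDSL (95th percentile 6.95), OASL in HL60 (7.03) and OAS1 in SKM1 (7.12) lay within the spread of the background probes. OAS1 went from 6.04 to 8.65 in HL60, from 4.86 to 6.64 in MDSL, from 4.84 to 6.80 in SKM1 and from 5.61 to 5.39 in K562. The MDSL and SKM1 controls were under background, which gives at least 3.17-fold and 2.61-fold. Its mean difference was 1.53 ± 1.22 (SD, n = 4; limma adjusted p = 0.161). OAS1 was at 8.31 and 8.54 in the AZA and OR21 resistant derivatives, close to treated HL60. OAS2 was under background in all controls. It went from 3.47 to 3.54 in HL60, from 4.49 to 5.91 in MDSL, from 3.41 to 4.12 in SKM1 and from 4.01 to 3.91 in K562. It was at 5.74 in the AZA resistant derivative, at least 1.26-fold above parental HL60, and at 6.79 in the OR21 resistant derivative, at least 2.60-fold above it. So OAS2 lay above the background median in the derivatives and under it in treated HL60. Both derivative values were under the 95th percentile of background (7.07 and 7.04), within the spread of the background probes. OAS3 differed by 0.32 to 1.20 and OASL by 0.07 to 1.25 over the 4 lines.

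Among the GTPases, which trap viral nucleocapsids (MX1, MX2) or attack pathogen vacuoles (GBP1, GBP2), all 4 measured differences passed 2-fold in HL60 and 0 in MDSL. MX1 went from 6.30 to 8.77 in HL60, from 7.01 to 7.79 in MDSL, from 8.50 to 13.45 in SKM1 and from 5.80 to 6.58 in K562. Its SKM1 response of 4.95 was the largest of any member in that line. The mean difference was 2.24 ± 1.97 (SD, n = 4; limma adjusted p = 0.174), and 1.34 without SKM1. MX1 was at 9.41 and 9.62 in the AZA and OR21 resistant derivatives, above treated HL60. MX2 went from 5.88 to 8.46 in HL60, from 9.57 to 9.50 in MDSL, from 6.76 to 9.45 in SKM1 and from 5.14 to 4.84 in K562. It was at 10.33 and 10.66 in the derivatives, which is 4.44 and 4.78 above the parent and more than 2-fold above treated HL60. GBP2 was at 5.75 in control and 10.51 in treated HL60, a difference of 4.75, while the other lines differed by 0.76 to 1.57. In the derivatives GBP2 was at 6.26 and 6.39, more than 2-fold below treated HL60. GBP1 differed by -0.35 to 1.03, and its control was under background in HL60, which gives at least 1.51-fold there. The treated value, 6.01, was under the 95th percentile of background (7.03).

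The IFITM proteins and BST2 act at membranes, where they block viral fusion or tether budding virus. Of the 5 members, 3 were at least 2-fold higher after OR21 in HL60, 4 in SKM1, 2 in MDSL and 0 in K562. IFITM1 went from 9.37 to 13.26 in HL60, from 15.97 to 16.58 in MDSL, from 13.77 to 15.77 in SKM1 and from 16.70 to 16.06 in K562. HL60 began lowest and differed most, and K562 began highest and was lower after treatment. The mean difference of IFITM1 was 1.47 ± 1.94 (SD, n = 4; limma adjusted p = 0.307). IFITM2 went from 12.96 to 14.91 in HL60, from 15.66 to 16.00 in MDSL, from 15.24 to 16.22 in SKM1 and from 14.03 to 14.42 in K562, a mean difference of 0.92 ± 0.75 (SD, n = 4; limma adjusted p = 0.189). IFITM3 went from 10.21 to 13.88 in HL60, from 14.84 to 15.28 in MDSL, from 14.38 to 16.13 in SKM1 and from 14.23 to 15.02 in K562, a mean difference of 1.66 ± 1.45 (SD, n = 4; limma adjusted p = 0.177). Without HL60 the means fell to 0.66 for IFITM1, 0.57 for IFITM2 and 0.99 for IFITM3. For IFITM1 and IFITM3, treated HL60 remained below every control array of the other 3 lines. The AZA and OR21 resistant derivatives held IFITM1 at 10.54 and 10.78, IFITM2 at 13.85 and 13.67 and IFITM3 at 11.55 and 11.73, each more than 2-fold below treated HL60.

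BST2 went from 7.51 to 8.36 in HL60, from 7.86 to 9.51 in MDSL, from 7.88 to 9.72 in SKM1 and from 9.27 to 9.71 in K562. The 4 controls and 4 treated arrays overlapped, since control K562 lay above treated HL60. The mean difference of BST2 was 1.19 ± 0.66 (SD, n = 4; limma adjusted p = 0.126), and the derivatives were at 8.18 and 8.55. LY6E, a surface protein that restricts coronavirus entry, differed by 2.10 in MDSL, 1.22 in SKM1, 0.18 in K562 and -0.09 in HL60.

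The ISG15 system attaches a ubiquitin-like tag to proteins. Of its 4 members, 3 were at 2-fold in MDSL, 1 in SKM1 and 0 in HL60, and in K562 only HERC5 reached that size, under background on both arrays. ISG15, the tag itself, went from 5.97 to 6.55 in HL60, from 6.46 to 8.55 in MDSL, from 6.19 to 7.20 in SKM1 and from 6.32 to 7.10 in K562. It was higher in all 4 lines, by a mean of 1.12 ± 0.67 (SD, n = 4; limma adjusted p = 0.136), and was at 6.50 and 6.42 in the derivatives. USP18, which removes the tag and dampens signalling at IFNAR2, went from 6.12 to 6.02 in HL60, from 7.84 to 12.78 in MDSL, from 8.13 to 8.83 in SKM1 and from 4.88 to 4.49 in K562. The difference of 4.94 in MDSL made up nearly all of its mean of 1.29 ± 2.48 (SD, n = 4; limma adjusted p = 0.467), which was 0.073 without MDSL. USP18 was at 5.59 and 5.99 in the derivatives. HERC5, the main ligase for the tag, went from 10.06 to 9.70 in HL60, from 9.10 to 8.61 in MDSL, from 9.04 to 8.73 in SKM1 and from 3.51 to 4.91 in K562. It was lower in the 3 lines with a high control level, and K562 stayed under background. Its mean difference was 0.06 ± 0.89 (SD, n = 4; limma adjusted p = 0.946). HERC5 was at 9.39 and 9.81 in the derivatives. HERC6, a related protein, went from 7.88 to 8.28 in HL60, from 8.60 to 10.09 in MDSL, from 7.34 to 7.93 in SKM1 and from 7.23 to 7.13 in K562, and was at 7.94 and 7.47 in the derivatives. As printed above, the HERC5 promoter window holds 3 paired repeats, and so does that of IFI6, the member with the largest mean response.

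The ADP-ribosyltransferases PARP9, PARP12 and PARP14 modify proteins in antiviral signalling, and DTX3L is a ubiquitin ligase that works with PARP9. All 4 members were higher in all 4 lines. PARP14 went from 8.84 to 10.33 in HL60, from 10.09 to 11.98 in MDSL, from 9.87 to 11.27 in SKM1 and from 6.96 to 9.33 in K562. The mean difference was 1.79 ± 0.44 (SD, n = 4; limma adjusted p = 0.0925). PARP9 went from 7.59 to 8.41 in HL60, from 9.64 to 12.21 in MDSL, from 7.50 to 10.59 in SKM1 and from 6.34 to 7.78 in K562, a mean of 1.98 ± 1.04 (SD, n = 4; limma adjusted p = 0.116). DTX3L differed by 2.02 in K562, 1.46 in MDSL, 1.41 in SKM1 and 0.32 in HL60. The windows of PARP9 and DTX3L overlap, and the paired repeat printed for PARP9 is the same 10 bases (chr3:122564332-122564341) in both. PARP9 was at 7.37 in the AZA resistant and 8.38 in the OR21 resistant derivative, more than 2-fold apart. PARP12 differed by 0.94 to 1.85.

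Of the 8 nucleic acid enzymes and other effectors, 6 passed 2-fold in MDSL, 5 in SKM1, 2 in K562 and 0 in HL60. RSAD2 (viperin), which makes a chain-terminating nucleotide, went from 6.15 to 6.54 in HL60, from 8.56 to 11.15 in MDSL, from 6.75 to 8.49 in SKM1 and from 6.63 to 10.32 in K562. The mean difference was 2.10 ± 1.39 (SD, n = 4; limma adjusted p = 0.127), and the derivatives were at 6.90 and 6.96. CMPK2, the gene next to RSAD2, went from 5.64 to 6.14 in HL60, from 11.82 to 11.60 in MDSL, from 8.52 to 9.74 in SKM1 and from 7.70 to 9.83 in K562. It was at 6.68 in the AZA resistant and 7.74 in the OR21 resistant derivative. SAMD9L, a restriction factor of poxviruses, went from 8.43 to 8.51 in HL60, from 9.02 to 10.38 in MDSL, from 8.05 to 10.20 in SKM1 and from 6.23 to 5.57 in K562. It was at 8.21 and 8.36 in the derivatives. ISG20, an RNA exonuclease, went from 5.79 to 6.14 in HL60, from 5.75 to 5.88 in MDSL, from 5.69 to 5.86 in SKM1 and from 5.41 to 6.05 in K562. Its mean difference of 0.32 ± 0.23 (SD, n = 4; limma adjusted p = 0.386) came from levels between 5.41 and 6.14. EPSTI1, SAMD9, XAF1 and DDX60 each differed most in MDSL or SKM1, by 2.97, 2.46, 3.31 and 3.21.

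Of the 3 nuclear proteins, 3 passed 2-fold in SKM1 and 1 in each of the other lines. IFI16, a DNA sensor, went from 7.62 to 13.02 in HL60, from 12.14 to 12.19 in MDSL, from 7.61 to 12.41 in SKM1 and from 4.21 to 5.19 in K562. MDSL held it high without treatment, and K562 stayed under background with it. The differences ran from 0.05 in MDSL through 0.98 in K562 and 4.79 in SKM1 to 5.39 in HL60, with a mean of 2.80 ± 2.68 (SD, n = 4; limma adjusted p = 0.19). IFI16 was at 13.38 in the AZA resistant and 13.80 in the OR21 resistant derivative, 5.75 and 6.18 above the parent, the largest difference of any member in each. SP110 went from 4.83 to 6.93 in K562, at least 2.85-fold, and elsewhere it differed by 0.86 to 1.84. TRIM22, an antiviral ubiquitin ligase, differed by 1.28 in SKM1 and by -0.20 to 0.29 in HL60, MDSL and K562. It was at 7.88 and 8.38 in the derivatives against 6.53 in control and 6.63 in treated HL60.

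**Figure D2:**
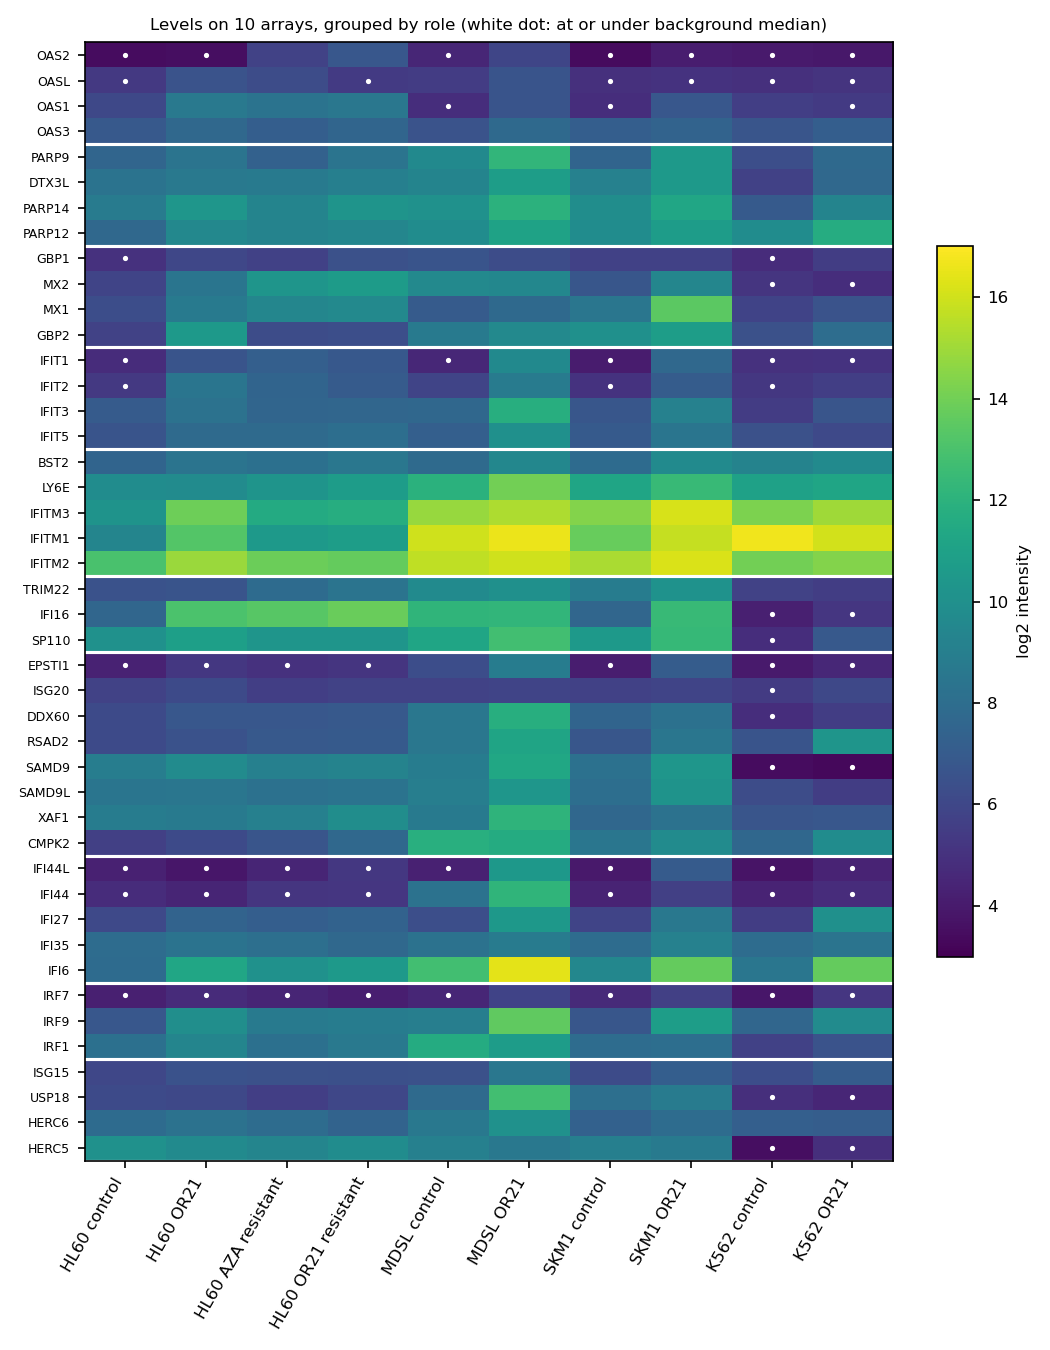
Log2 intensity of each measured member on the 10 arrays, grouped by role, with a white dot where the value is at or under the array's background median. A row should be read only along itself, since levels of different probe sets are not comparable. K562 held 17 members at or under the background of its control array and MDSL held 5.

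The level of the set in untreated cells differed between lines. The median level of the members was 8.58 in control MDSL and 7.57 in SKM1, against 6.73 in HL60 and 5.75 in K562. At or under background were 9 of 44 members each in HL60 and SKM1, 5 in MDSL and 17 in K562, against 35.4%, 32.6%, 26.0% and 34.8% of all genes. After OR21 the counts were 5 in HL60, 2 in SKM1, 0 in MDSL and 13 in K562, against 33.5%, 32.3%, 33.1% and 33.1% of all genes. The K562 counts were thus near the share of all genes. The treated medians were 8.39 for HL60, 10.46 for MDSL, 8.98 for SKM1 and 6.63 for K562. The largest difference of a member fell in MDSL for 15 members, in K562 for 11, in HL60 for 10 and in SKM1 for 8. The smallest fell in K562 for 17 and in HL60 for 14. Both tallies include values under background, as for HERC5 and IRF7, which are counted as largest in K562.

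In K562 the members with the largest differences were IFI6 (5.16), IFI27 (4.50) and RSAD2 (3.68). The lowest there were SAMD9L (-0.66), IFITM1 (-0.64) and USP18 (-0.38), the last under background on both arrays. With values under the 95th percentile of background raised to it, the K562 median was 0.017 and 7 members passed 2-fold.

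No member passed the test of a difference between the 2 lines at 100 nM and the 2 lines at 500 nM. The interaction term in limma called 0 of 44 members and 0 of 17687 genes (0%). At an unadjusted p under 0.05 there were 14 members and 968 genes, and the lowest adjusted p of a member was 0.877. The response was larger at 100 nM for 30 members, and the median of the 500 nM minus the 100 nM response was -0.57, against -0.0061 over all genes. Both 100 nM lines lay above both 500 nM lines for 19 members, against 18.7% of all genes, and the reverse held for 5, against 17.7%. Dose, line and disease cannot be told apart here.

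The resistant derivatives, which were not treated, carried part of the set at raised levels. Both comparisons share the parental HL60 array, and each rests on 1 array, so neither has a test. The median member was 0.63 above the parent in the AZA resistant derivative and 0.88 above it in the OR21 resistant one, against -0.019 and -0.069 over all genes. At 2-fold or more were 16 members in the AZA resistant derivative (7.04% of all genes) and 19 in the OR21 resistant one (7.69%). None was 2-fold lower in either, and the lowest were HERC5 (-0.67), USP18 (-0.53), SAMD9L (-0.23) and PARP9 (-0.22) in the AZA resistant derivative. In the OR21 resistant derivative they were HERC6 (-0.41), HERC5 (-0.25), IFI35 (-0.21) and USP18 (-0.13). The highest with a parent above background were IFI16, MX2 and MX1 in both derivatives, followed by OAS1 (2.27) in the AZA resistant one and IFI6 (2.61) in the OR21 resistant one. IFIT1 and OAS2 also ranked high by their measured values, 2.48 and 3.32, but their parent was under background and only the bounds given above apply.

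Set against treated HL60, both derivatives were more than 2-fold higher for TRIM22 and MX2, and more than 2-fold lower for IRF9, GBP2, IFITM1, IFITM2 and IFITM3. Of all genes 9.16% were that much higher in both and 7.60% that much lower. OAS2 was under background in treated HL60, so its values there are bounds, at least 1.25-fold (AZA resistant) and at least 2.58-fold (OR21 resistant). Both start from derivative values under the 95th percentile of background. Both derivatives were above treated HL60 for 13 of 44 members, against 42.6% of all genes. These values rest on the treated HL60 array with the high hybridisation spikes. Scaled to the spikes, IRF9 and IFITM2 were no longer 2-fold lower, which left 3 members, and both derivatives were above treated HL60 for 32 members, against 82.4% of all genes. At 2-fold or more above it were then 11 members, against 26.8% of all genes. The derivatives were over 2-fold apart for 3 of 44 members, OAS2, CMPK2 and PARP9. In all 3 the OR21 resistant derivative was higher, and 1.57% of all genes were that far apart in either direction.

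**Figure D3:**
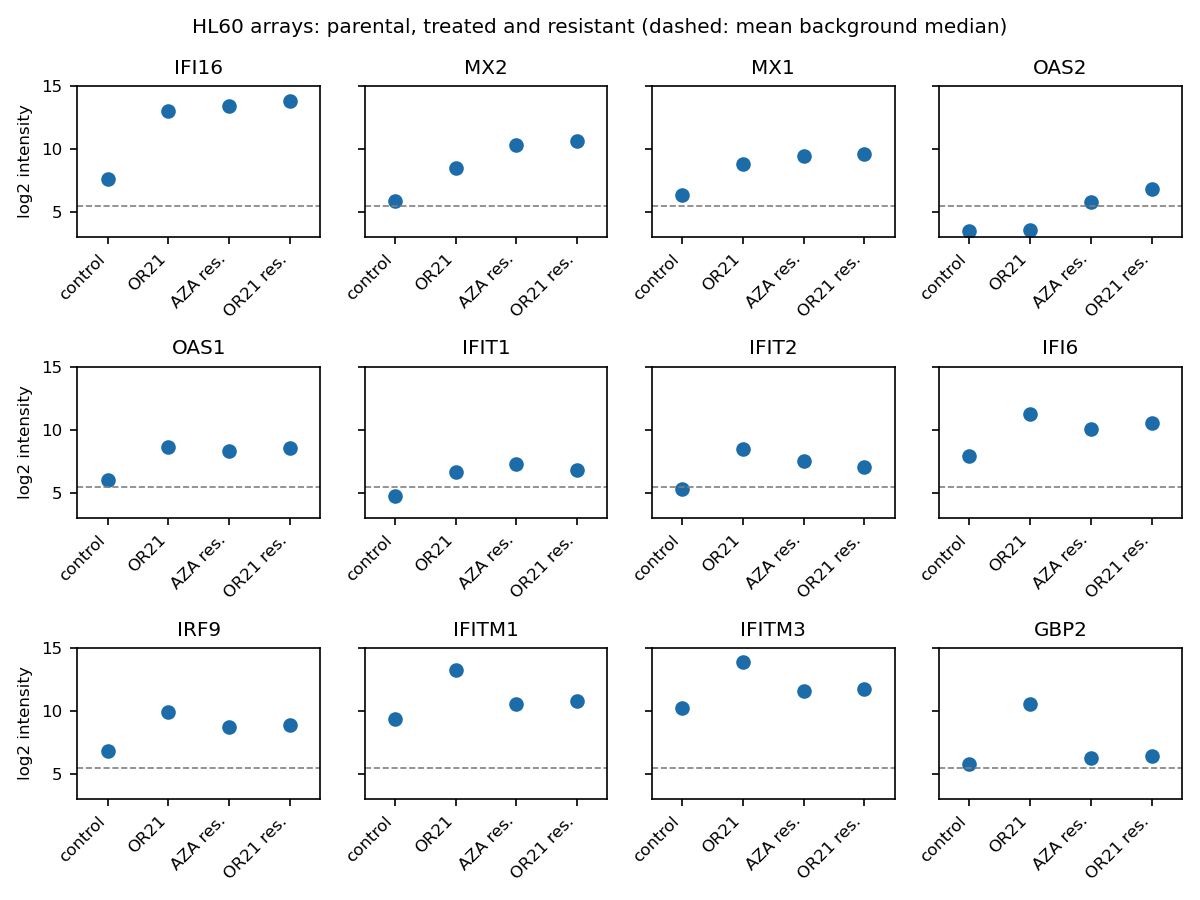
Log2 intensity of 12 members on the 4 HL60 arrays (control, OR21-treated, AZA resistant, OR21 resistant), 1 point per array, with the mean background median dashed. IFI16 goes from 7.62 in control cells to between 13.02 and 13.80 on the other 3 arrays, while GBP2 is at 10.51 in treated cells and at 6.26 and 6.39 in the derivatives.

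Many members sit beside each other in the genome. In the RefSeq gene order (GRCh38.p14) no coding gene lies between IFI44L and IFI44, GBP1 and GBP2, IFITM2, IFITM1 and IFITM3, OAS1, OAS3 and OAS2, CMPK2 and RSAD2, MX2 and MX1, HERC6 and HERC5, or SAMD9 and SAMD9L. IFIT2, IFIT3, IFIT1 and IFIT5 follow each other with only IFIT1B among them, and PARP9, DTX3L and PARP14 with only PARP15. Some neighbours had different values. In K562, RSAD2 differed by 3.68 beside 2.13 for CMPK2. In MDSL, RSAD2 differed by 2.59 and CMPK2 by -0.22. In treated HL60, OAS1 differed by 2.61 while OAS2 was under background on both arrays, and GBP2 differed by 4.75 while GBP1 went from under background to 6.01.

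Upstream of these genes, the interferon ligands were low. Of 21 ligand genes 20 were measured, and 0 lay above the 95th percentile of background on any of the 10 arrays. On all 10 arrays 12 of them were at or under the background median, 1 (IFNA14) was above it, and the levels of the 20 ran from 2.85 to 6.31. IFNB1, interferon-beta, was at 4.63 to 4.99 over all 10 arrays. Its mean difference was 0.06 ± 0.24 (SD, n = 4; limma adjusted p = 0.892). In the ligand list 0 genes passed the test in either direction.

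Of the 6 receptor genes, 5 were above the 95th percentile of background on at least 1 array, and 0 passed the test. The exception was IFNLR1, a chain of the lambda receptor. IFNAR1 was at 10.07 to 11.04 on the 10 arrays with a mean difference of 0.00 ± 0.18 (SD, n = 4; limma adjusted p = 0.999). IFNAR2 went from 11.01 to 13.53 in HL60, from 13.07 to 14.35 in MDSL, from 12.11 to 12.74 in SKM1 and from 12.01 to 12.07 in K562. Its mean difference was 1.12 ± 1.05 (SD, n = 4; limma adjusted p = 0.206). It was at 12.68 and 12.54 in the AZA and OR21 resistant derivatives. IFNGR1, a chain of the interferon-gamma receptor, had a mean of 0.92 and IL10RB, a chain of the lambda receptor, of 0.81.

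Of the 8 signalling genes measured, 0 passed in either direction. IRF2, a repressor that competes with IRF1, was higher in all 4 lines by 1.07 ± 0.23 (SD, n = 4; limma adjusted p = 0.104). JAK1 was higher by 0.96 ± 0.64 (SD, n = 4; limma adjusted p = 0.156), STAT3 by 0.83 and JAK2 by 0.56. Of the 7 feedback inhibitors, 16 measured sensors of nucleic acids and 15 interferon-gamma and antigen presentation targets, 0 passed in either direction. Among them, EIF2AK2 (the kinase PKR) had a mean of 1.16 (limma adjusted p = 0.153), PIAS1 of 0.55 (limma adjusted p = 0.171), TBK1 of 0.60 (limma adjusted p = 0.18) and RIGI, the RNA sensor RIG-I, of 1.10 (limma adjusted p = 0.202). TAP1, which pumps peptides for presentation, had a mean of 0.64 (limma adjusted p = 0.201) and B2M, the light chain of class I molecules, of 0.48 (limma adjusted p = 0.205). Other genes of these lists had means below 0. IRF2BP1, a corepressor partner of IRF2, was at -0.46 (limma adjusted p = 0.247) and was lower in all 4 lines. The RNA sensor TLR3 was at -0.57 (limma adjusted p = 0.216). It was lower in MDSL and SKM1, and under background on both arrays of HL60 and of K562. The factor IRF8 was at -0.58 (limma adjusted p = 0.436). Means above 0 were found for 4 of the 7 inhibitors, 11 of the 16 sensors and 11 of the 15 targets.

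**Figure D4:**
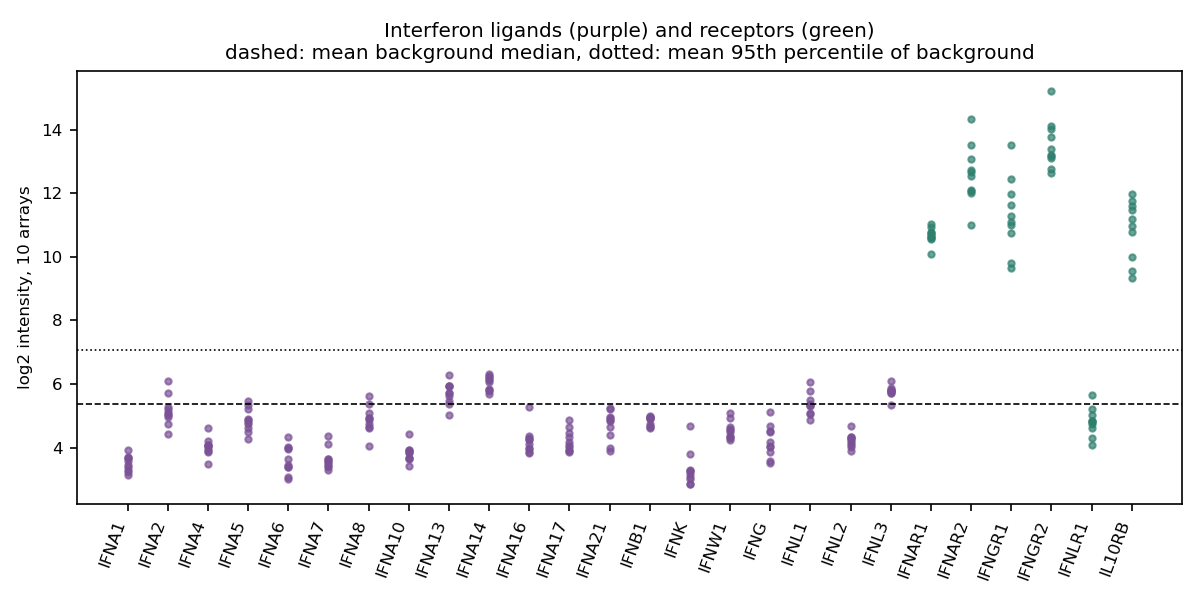
Log2 intensity of the interferon ligand and receptor genes on the 10 arrays, 1 point per array, with the mean background median dashed and the mean 95th percentile dotted. The 20 measured ligand genes stay between 2.85 and 6.31, under the 95th percentile, while IFNAR1 lies between 10.07 and 11.04.

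Markers of other blood cell states also differed with treatment. The summed intensity of the 6 monocyte markers, as log2, was 12.27 to 17.73 in the 4 controls and 13.19 to 18.31 in the treated arrays. It was higher after OR21 in each line, but LYZ made up most of it, at 17.71 in control and 18.14 in treated HL60. Single markers were lower after OR21 for CSF1R in SKM1 (11.35 to 11.02), FCN1 in K562 (7.92 to 7.46) and CD14 in MDSL (5.86 to 5.80). The other marker values were higher. Above the 95th percentile of background were 3 to 5 of the 6 in the controls and 3 to 6 in the treated arrays. CD14, a monocyte surface receptor, went from 7.64 to 14.60 in HL60 and was at 8.01 and 10.70 in the AZA and OR21 resistant derivatives. The summed intensity of the 6 T and NK lymphocyte markers was 8.64 to 10.16 in the controls and 8.87 to 10.98 after OR21, higher in HL60, MDSL and SKM1 and lower in K562. GNLY, a lymphocyte granule protein, went from 3.49 to 9.28 in HL60, and CD3D, a chain of the T cell receptor complex, from 3.96 to 7.21. Of the rest, CD3E went from 5.56 to 6.81, CD2 from 4.12 to 6.16 and NKG7 from 8.21 to 9.04 there. CD3G (3.53 and 4.98) was under background on both HL60 arrays, and GNLY, CD3D and CD2 were under it in control HL60. CLEC4C, a defining marker of the plasmacytoid dendritic cells that produce much interferon, was at 4.43 to 6.07 on all 10 arrays, under the 95th percentile of background. Of the other markers on that list, GZMB was at 8.05 to 8.83, TCL1A at 5.84 to 6.84, and IL3RA at 12.01 and 11.73 in MDSL and 3.45 to 6.88 in the other lines. The summed intensity of the 4 erythroid markers was higher after OR21 in each line, from 14.47 to 16.52 in K562, 11.08 to 12.96 in MDSL, 7.70 to 10.41 in SKM1 and 7.73 to 8.16 in HL60. GATA1 was the largest term outside K562, and single markers were mixed. In SKM1, GATA1 (6.49 to 10.29) was higher and HBE1 (5.80 to 5.48) lower. KLF1 (4.67 and 5.38) and ALAS2 (5.19 and 4.84) were under background on both SKM1 arrays. In HL60, GATA1 (6.80 to 7.60) was higher, and KLF1 (5.45 to 5.24) was lower, ending under background. HBE1 (4.93 and 4.96) and ALAS2 (4.76 and 4.59) were under background on both arrays. The 4 granulocyte precursor markers summed to less in HL60 (17.56 to 16.14), SKM1 (17.67 to 16.45) and K562 (7.61 to 7.26) and to more in MDSL (14.16 to 14.45). In K562, 0 of the 4 lay above the 95th percentile of background on either array. In MDSL, MPO went from 8.62 to 13.11 and AZU1 from 13.83 to 13.27. The 4 progenitor markers summed to less after OR21 in MDSL (15.17 to 14.16), SKM1 (12.84 to 10.51) and HL60 (7.99 to 7.73) and to more in K562 (7.02 to 8.60). All 4 were lower in MDSL. In HL60, FLT3 was lower (7.44 to 6.47). CD34 went from 5.12, under background, to 5.76, under the 95th percentile (7.03), and KIT and IL3RA were under background on both arrays. In SKM1, KIT and FLT3 were lower and CD34 and IL3RA higher, with CD34 and IL3RA under the 95th percentile of background on both arrays. In K562, KIT (5.56 to 8.30) was higher, and CD34 went from 5.58 to 5.40, ending under background. IL3RA and FLT3 were under background on both K562 arrays. The part of these marker differences in the values of the interferon-stimulated genes was not tested.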

How the data were processed

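The authors deposited 1 linear intensity for each probe set (4.25 to 405294). Software, background correction, normalization and genome build are not given in the sources used here, and the labels' protocols name only a Direct-zol kit and biotin labelling. Quartiles lay close together between arrays, so values were treated as already normalized and put on log2 with no pseudocount. Of 24351 rows the platform annotation named 17709, each with 1 gene. For 20 genes with several probe sets, none a member, the one with the highest mean was kept, which left 17687 genes.

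The response to OR21 was fitted on 8 arrays with limma 3.58.1 in R 4.3.3 (lmFit, eBayes, line as a block, two-sided, Benjamini-Hochberg over all genes, threshold 0.05), and the fit was tested on simulated data. Single-line and derivative differences have no test. Precision is limited by the number of arrays. The members, lists and naming rule were chosen with earlier results of these data known. Values on every array are given for members past the threshold, the 10 largest and 3 smallest mean differences, extremes in K562 and the derivatives, and a list of pathway members. Others were picked after their values were seen. A fold called "at least" replaced a dim control by its array's background.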

Additional observations from a re-analysis of the deposited data

Results flagged for a closer look

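Some single values stood far from the other arrays of their group, by a gap test that chance passes in about 1 in 20 groups of 4. In control cells, MDSL stood above the other 3 lines for IFI44 (8.27 against 4.39 to 4.77), EPSTI1 (6.33 against 4.00 to 4.34) and IFI35 (8.28 against 7.94 to 7.97). Control HL60 stood below them for IFITM3 (10.21 against 14.23 to 14.84) and PARP12 (7.71 against 9.80 to 9.81). Control K562 stood below them for HERC5 (3.51 against 9.04 to 10.06) and SAMD9 (3.48 against 8.25 to 8.91).

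In treated cells, MDSL stood above the other lines for IFI44 (12.18 against 4.44 to 5.67). Treated HL60 stood below them for BST2 (8.36 against 9.51 to 9.72), and treated K562 stood below them for IFI16 (5.19 against 12.19 to 13.02).

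In the response to OR21, DDX60 stood apart in MDSL (3.21 against 0.67 to 0.71) and HERC5 in K562 (1.40 against -0.49 to -0.30). HERC5 was under background on both K562 arrays, so no difference was measured there. The USP18 response was 4.94 in MDSL and 0.70 in SKM1, the 100 nM lines, and -0.10 in HL60. In K562 USP18 was under background on both arrays, so no difference was measured there. With the K562 values kept, the means at 100 nM and 500 nM were 2.82 and -0.24. The difference was -3.06, with an adjusted p of 0.877 in the limma test of the dose difference.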

How the results depend on the processing

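Arrays were too few to separate line, dose and disease, and the normalization was not given. Without any 1 line the count of members past the threshold was 0 to 0, and it was 0 with no replicate block and 0 with a floor at the 95th percentile of background. It was 9 with arrays scaled to the hybridisation spikes, an alternative chosen after seeing the data. The IFI6 adjusted p was 0.13 with the floor and 0.982 with no replicate block. The labels give no replicate numbers, and the block was the cell line. Members at 2-fold in every line numbered 3 with the floor, 3 with the spikes and 5 to 10 without 1 line. The floor gave medians of 0.017 in K562, 0.18 in the AZA resistant and 0.42 in the OR21 resistant derivative, with 7 members at 2-fold in K562 and 9 in the AZA resistant derivative. The spikes gave a median of 0.092 and 13 members in HL60. They also moved the counts against treated HL60 from 13, 3 and 5 members (both derivatives above, 2-fold above and 2-fold below) to 32, 11 and 3. At 1.5-fold there were 23 in K562 and 31 in the OR21 resistant derivative. At 3-fold there were 13 in HL60, 9 in K562, 9 in the AZA resistant and 12 in the OR21 resistant derivative. Repeats spaced by 3 bases were in 17.0% of member windows. The mean of HERC5 turned to -0.063 with median centring, -0.070 with spikes, -0.28 with the floor and ran from -0.38 without K562 to 0.25 without MDSL. With the floor, GBP1, IRF7, ISG20, OAS2 and OASL each came to -0.0076, the mean difference between the floors of the arrays, since none of their values lay above it. Beyond what its construction shows, the cause of each change was not tested. Quantile normalization, the mean of probe sets, the dim filter and the intensity trend turned no mean.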
